A study of Mus musculus with 7 samples.

Results

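MHC class I presentation genes were examined in RNA from follicular dendritic cells (FDCs), the antigen-holding stromal cells of B-cell follicles. The set was defined by gene symbol as 10 genes: the heavy chains H2-K1, H2-D1 and H2-T23, the light chain B2m, the peptide transport and loading genes Tap1, Tap2 and Tapbp, the immunoproteasome subunits Psmb8 and Psmb9, and the transcriptional regulator Nlrc5. All 10 were found among the 21176 genes of the deposited table, and all 10 passed the filter on low values. Male mice of 8 to 12 weeks, none of them immunized, gave the popliteal lymph nodes from which the cells were sorted by flow cytometry. One group was wild type (WT, n = 4 samples) and the other carried a knockout of Ngfr, the gene of the neurotrophin receptor p75 (Ngfr KO, n = 3 samples). Each sample pooled nodes from several mice. The knockout is given by name alone, and how the allele was made is not given in the sources used here.

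Class I molecules show peptides from inside the cell to CD8+ T cells. Proteasomes cut cytosolic proteins into peptides, and the immunoproteasome, in which Psmb8, Psmb9 and Psmb10 replace the standard catalytic subunits, is the form induced by interferon. The TAP transporter carries the peptides into the endoplasmic reticulum, where a loading complex of tapasin (Tapbp), calreticulin and Pdia3 places them on a heavy chain paired with beta-2 microglobulin (B2m). NLRC5 is a transactivator of class I genes, the counterpart of CIITA for class II.

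Libraries held 17244925 to 18873542 reads in WT and 20741770 to 21538400 in Ngfr KO, so depth and genotype cannot be told apart. Ngfr itself had a signal of 0.377, 0.677, 1.295 and 1.14 in WT replicates 1 to 4 and 0.305, 0.353 and 0.184 in Ngfr KO replicates 1 to 3. The groups did not overlap, and the limma log2 change was -0.52 (SE 0.18, adjusted p = 0.0431). Reads of Ngfr were present in all 3 Ngfr KO libraries, edgeR did not call the gene (adjusted p = 0.0574), and 12 of 17 alternatives lost the limma call, among them leaving out any Ngfr KO replicate or WT replicate 2, 3 or 4 (limma adjusted p = 0.0613 to 0.111). All 12 FDC markers were detected in every sample, their sum reaching 1805 to 5066 across WT samples and 7755 to 10278 across the knockouts. Limma called 11 of the 12 higher, against 18.3% of all genes tested. Among these 11, Tnfsf11 was below a signal of 1 in WT replicates 1 to 3, so it was tested through its Ngfr KO values. Markers of other cells were present too. The 12 endothelial markers together reached 115 to 160.2 across WT samples and 27.9 to 49.4 across the knockouts, with none at 0 in any sample. Limma called all 10 that were tested lower, against 15.8% of all genes tested. Emcn and Esam were below a signal of 1 in every Ngfr KO sample, so they were tested through their WT values. Flt1 and Vwf were below the filter, their groups overlapped, and edgeR called neither. The 9 myeloid markers reached 3.54 to 10.6 across WT samples and 11.01 to 48.98 across the knockouts, groups that were apart but nearly met. Itgam, Adgre1, Tyrobp and Itgax were at 0 in some sample. Of the 4 myeloid markers tested, limma called 2 higher, Lyz2 and Cd14, and 0 lower. B-cell sums of 12.5 to 19.3 and 8.96 to 30.1 overlapped. Reticular stroma sums were 48.7 to 145.3 across WT samples and 95.9 to 123.6 across the knockouts, and overlapped too. T-cell sums of 1.64 to 8.80 and 2.59 to 8.36 also overlapped, with Cd4 at 0 in some sample. Class I genes are expressed by nearly all nucleated cells. The part of cell composition in the values below was not tested, and fewer cells of a type cannot be told apart from less RNA per cell.

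Of the 10 class I genes, limma called H2-D1 and Tap2 higher and Nlrc5 lower in Ngfr KO, and 7 did not pass the test. Nlrc5 passed the filter through its WT values, and neither edgeR nor DESeq2 called it. H2-D1 was 1.75-fold and Tap2 1.91-fold higher by group means, whereas Nlrc5 was at 0.498 of its WT mean. B2m, the common light chain, averaged 1053 ± 182 across WT samples (SD, n = 4) and 870.5 ± 188 across Ngfr KO samples (SD, n = 3). The 3 calls come from limma on log2(signal + 1) with Benjamini-Hochberg adjustment over 8326 genes, at an adjusted p-value under 0.05. Across all genes tested the same rule called 34.2%, so 3 of 10 is close to the background. The groups were apart, with no WT sample within the Ngfr KO range or past it, for 4 of the 10 genes (H2-K1, H2-D1, Tap2 and Nlrc5), against 40.9% of all genes tested. The median log2 change of the 10 was 0.21, and that of all genes tested was 0.02. Without Ngfr KO replicate 2 limma called 0 of the 10, with 3 at an unadjusted p under 0.05. Without WT replicate 1 or WT replicate 2 the count was 1, and without WT replicate 3 it was 4. On the recovered reads edgeR called 1 of the 10, Tap2, against 15.2% of all genes it tested (8.67% higher and 6.55% lower). DESeq2 called 3 of the 10, H2-K1, H2-D1 and Tap2, against 21.9% of all genes it tested.

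**Figure D1:**
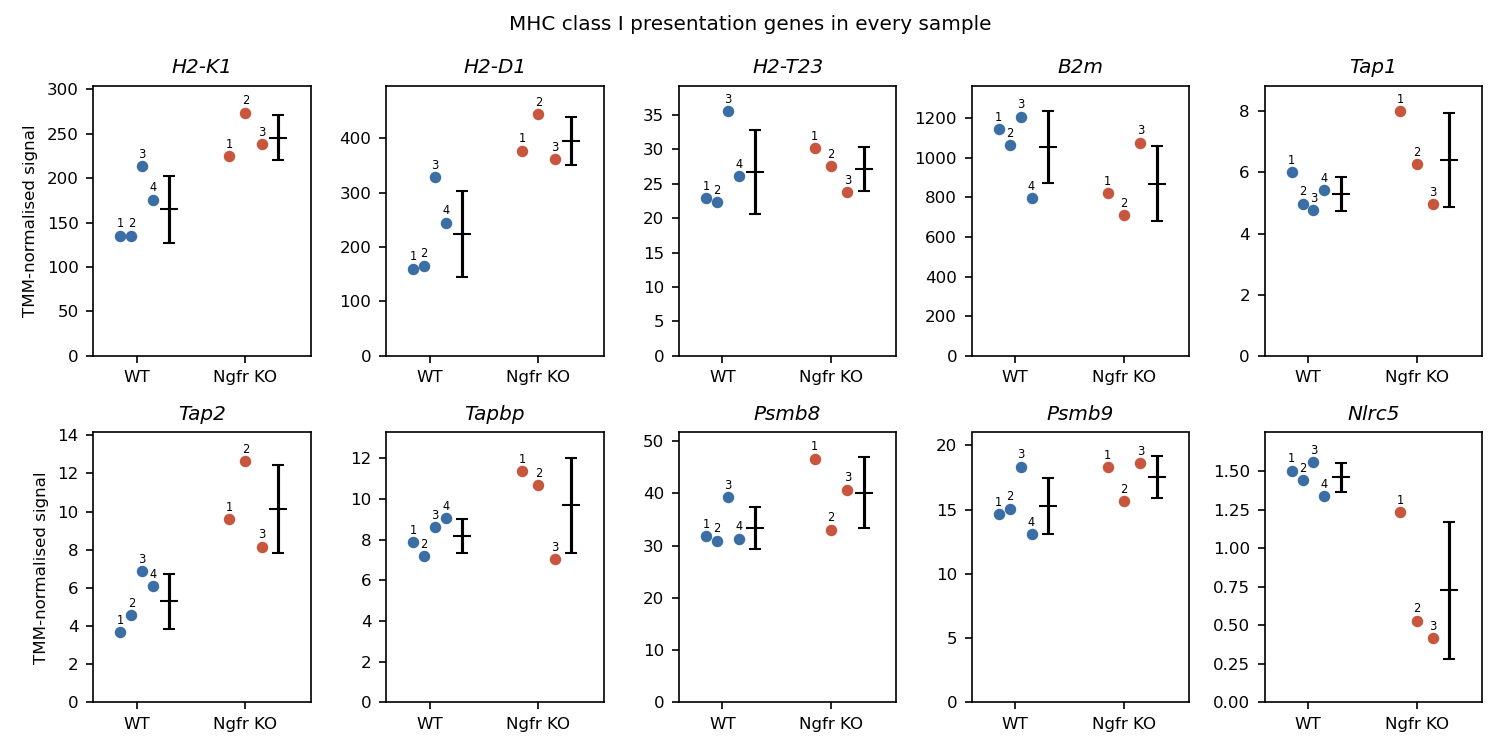
TMM-normalised signal (y axis, linear, from 0) of the 10 class I genes in each sample, with WT in blue and Ngfr KO in red, numbers giving the replicate and black bars the mean and SD. Groups are apart in H2-K1, H2-D1, Tap2 and Nlrc5 and overlap in the other genes.

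The classical heavy chains H2-K1 and H2-D1, which form the peptide groove seen by CD8+ T cells, were the most abundant members after B2m. H2-K1 (ENSMUSG00000061232, chromosome 17, 33996017 to 34000347, minus strand, GRCm38) had a signal of 135, 135, 213 and 176 in WT replicates 1 to 4. It had 225, 274 and 238 in Ngfr KO replicates 1 to 3. Every Ngfr KO sample was above every WT sample, with WT replicate 3 close to Ngfr KO replicate 1. The log2 change of 0.59 (SE 0.25) did not pass the limma test (adjusted p = 0.0802). It passed with DESeq2 on the recovered reads (adjusted p = 0.0319), with robust eBayes (0.0282) and without WT replicate 3 (limma adjusted p = 0.0417).

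H2-D1 (ENSMUSG00000073411, chromosome 17, 35262730 to 35267499, plus strand) had a signal of 160.0, 166, 328 and 244 in the WT replicates. Ngfr KO replicates had 377, 444 and 361. The highest WT sample, replicate 3, was below the lowest Ngfr KO sample. H2-D1 rose by 0.87 on the log2 scale (± 0.29 SE, limma's adjusted p = 0.0396). This call was lost with edgeR (adjusted p = 0.0518), after quantile normalization (limma 0.0503), after removal of the GC and length trend (0.0553) and without a filter (0.180). It was also lost without WT replicate 1 (0.104), WT replicate 2 (0.120), Ngfr KO replicate 1 (0.0966) or Ngfr KO replicate 2 (0.111).

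The start-site regions of both classical genes are shown because H2-D1 had the profile closest to that of H2-K1 among all genes tested, together with that of B2m, which had overlapping groups, and that of Tap1. Each window runs from 250 bases before to 50 after the annotated start, from RefSeq on GRCm38.p6, 5′ to 3′ along the gene. That start need not be the end of the gene span given in the text. The windows of H2-D1, and of Tapbp and Psmb8 counted below, lie wholly inside their spans. Capitals mark matches on either strand to 4 motifs. The first is CCAAT, bound by NF-Y, and another is TGACG, the core of cAMP-response elements. The pattern of interferon regulatory factors was a pair of GAAA separated by any 2 bases, and that of NF-κB was GGGA, then any base, a thymine and any base, then CCC. H2-K1 lies at chr17:34000298-34000597 (minus strand), H2-D1 at chr17:35262844-35263143 (plus), B2m at chr2:122147437-122147736 (plus) and Tap1 at chr17:34187306-34187605 (plus).
H2-K1: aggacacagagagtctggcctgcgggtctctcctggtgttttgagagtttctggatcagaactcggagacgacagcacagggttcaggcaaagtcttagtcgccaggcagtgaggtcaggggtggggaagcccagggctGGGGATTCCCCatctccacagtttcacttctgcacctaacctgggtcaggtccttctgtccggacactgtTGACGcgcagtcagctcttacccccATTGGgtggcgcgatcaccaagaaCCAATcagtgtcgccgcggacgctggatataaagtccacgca
H2-D1: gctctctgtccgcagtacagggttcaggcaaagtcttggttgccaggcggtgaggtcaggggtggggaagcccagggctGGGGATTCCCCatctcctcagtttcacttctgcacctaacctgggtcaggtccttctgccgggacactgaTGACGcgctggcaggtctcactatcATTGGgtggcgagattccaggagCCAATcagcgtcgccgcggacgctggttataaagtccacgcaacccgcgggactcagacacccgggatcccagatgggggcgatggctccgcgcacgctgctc
B2m: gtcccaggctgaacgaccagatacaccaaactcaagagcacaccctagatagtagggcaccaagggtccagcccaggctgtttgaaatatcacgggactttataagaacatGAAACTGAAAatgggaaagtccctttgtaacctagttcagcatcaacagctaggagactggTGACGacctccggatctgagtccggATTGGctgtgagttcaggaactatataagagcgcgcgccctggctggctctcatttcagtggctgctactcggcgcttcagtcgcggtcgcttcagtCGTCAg
Tap1: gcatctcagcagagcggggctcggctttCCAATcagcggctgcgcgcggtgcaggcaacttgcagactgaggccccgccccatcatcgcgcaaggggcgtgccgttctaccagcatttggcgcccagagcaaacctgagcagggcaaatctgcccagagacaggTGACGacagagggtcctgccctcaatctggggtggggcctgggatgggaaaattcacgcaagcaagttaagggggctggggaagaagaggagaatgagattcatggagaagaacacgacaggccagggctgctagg
The windows of H2-K1 and H2-D1 share an identical run of 47 bases that holds the NF-κB match, where matches to both strands overlap, offset by 1 base. Among the 8 members with a window in the table, H2-K1 and H2-D1 were the 2 with that match, against 1.1% of 32851 windows. The interferon regulatory factor match was in 2 of the 8, B2m and H2-T23, and in 3.44% of all windows. CCAAT was in 7 of the 8 and in 37.4% of all windows, and TGACG in 5 of the 8 and 20.8%. The Tap1 and Psmb9 genes diverge from one region, and their windows share 275 of 300 bases. A match is a description of the letters and does not show binding. Each pattern was a single fixed form, so a window without a match may still hold a variant of that site.

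H2-K1 and H2-D1 are close in sequence. Of the 50-base stretches in the protein-coding transcripts, 6.87% of those of H2-K1 and 13.9% of those of H2-D1 also occur in transcripts of another gene. The share was 28.8% for H2-T23. The counting rule for such reads is not given in the sources used here, so values of these heavy chains are uncertain to that extent. The ratio of H2-D1 to H2-K1 was 1.18, 1.23, 1.54 and 1.39 in WT and 1.68, 1.62 and 1.52 in Ngfr KO, and the groups overlapped at WT replicate 3.

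H2-T23 encodes Qa-1, a non-classical chain that presents leader peptides of other class I chains to NK and T cells. Its signal was 22.9, 22.3, 35.5 and 26.1 in WT and 30.2, 27.5 and 23.8 in Ngfr KO (chromosome 17, 36029773 to 36032855, minus strand). The groups overlapped fully, with a log2 change of 0.04 (± 0.20 SE, limma's adjusted p = 0.890). Its sign turned under quantile normalization, with the GC and length trend removed, and without WT replicate 1, WT replicate 2 or Ngfr KO replicate 1.

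B2m (ENSMUSG00000060802, chromosome 2, 122147686 to 122153083, plus strand) had a signal of 1144, 1064, 1207 and 795 in WT and 823, 711 and 1077 in Ngfr KO. It ranked between 4 and 7 among all genes of the table in each sample. WT replicate 4 lay among the Ngfr KO samples and Ngfr KO replicate 3 among the WT samples. The log2 change was -0.28 (± 0.31 SE, limma's adjusted p = 0.499), so a difference was not detected, and the error allows a change in either direction. Its ratio to the sum of H2-K1 and H2-D1 was 3.87, 3.54, 2.23 and 1.89 in WT and 1.37, 0.990 and 1.80 in Ngfr KO. That ratio was lower in every Ngfr KO sample than in any WT sample, with WT replicate 4 and Ngfr KO replicate 3 nearly meeting. It was chosen after the values were seen and was given no test.

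**Figure D2:**
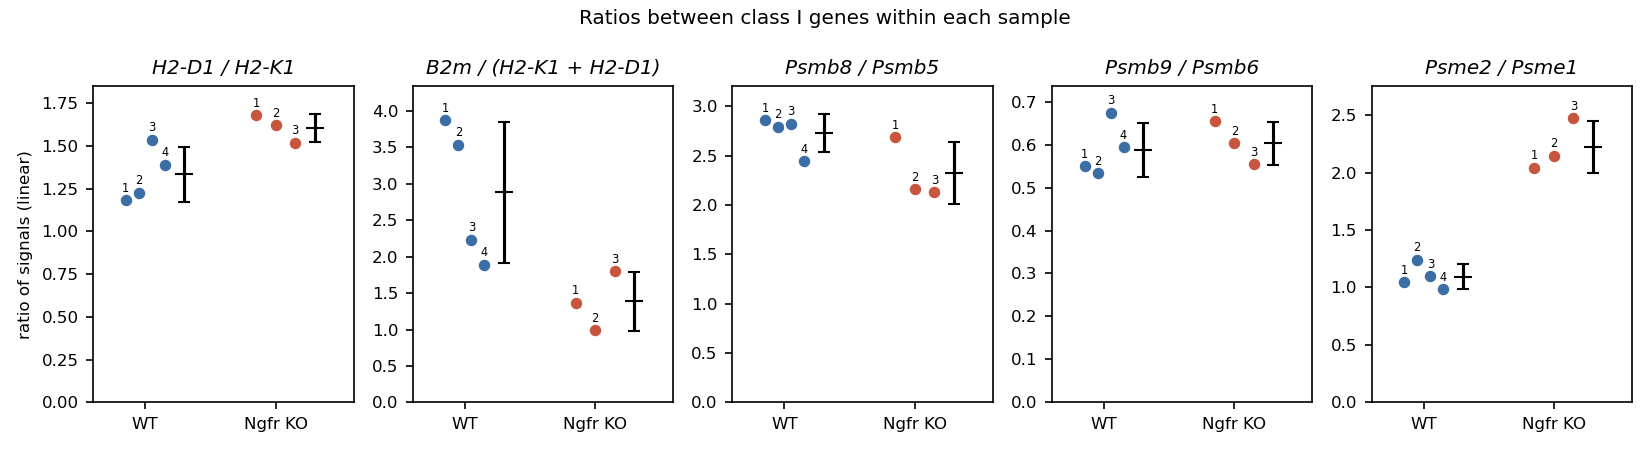
Ratios of signals within each sample (y axis, linear, from 0) for 5 gene pairs, with WT in blue, Ngfr KO in red, replicate numbers at the points and black bars for mean and SD. Groups are apart for B2m over the classical chains and for Psme2 over Psme1, and overlap for the other 3 ratios.

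Other class I and class I-like chains were read from a list of 16 genes, of which 14 were in the table and 10 were tested. Limma called 2 higher and 1 lower, close to the 34.2% of all genes tested (18.3% higher and 15.8% lower), with a median log2 change of 0.21 against 0.02 for all genes. H2-M2, a non-classical chain, had the largest change of the list. Its signal was 2.17, 7.35, 10.5 and 8.63 in WT and 34.2, 35.8 and 36.3 in Ngfr KO. Its log2 change was 2.31 (± 0.35 SE, limma's adjusted p = 8.90e-04), and the call was kept under all 18 alternatives. H2-M3, which presents N-formylated peptides, rose from 6.56 ± 1.13 (SD, n = 4) to 10.3 ± 1.6 (SD, n = 3), by 0.58 on the log2 scale (± 0.18 SE, limma's adjusted p = 0.0254). That call was lost in 7 of 17 alternatives, among them leaving out WT replicate 1 or 2 or Ngfr KO replicate 1 or 2 (limma adjusted p = 0.0661 to 0.118). H2-Q4 fell from 2.60 ± 0.63 to 1.16 ± 0.13 (log2 change -0.72, SE 0.17, limma adjusted p = 0.00759), although 24.3% of its 50-base stretches occur in other genes. That share was larger for H2-Q7 (34.9%) and H2-Q6 (32%), so their values are uncertain in the same way. H2-Q7, a Qa-2 chain, ranged from 62.7 to 89.9 across WT samples and 92.8 to 94.4 across knockouts and did not pass the test (log2 change 0.39, limma adjusted p = 0.155). H2-Q6 (0.38, adjusted p = 0.168) did not pass it either, and Fcgrt, the neonatal Fc receptor, had -0.49 (adjusted p = 0.0705). Without Ngfr KO replicate 3, H2-Q6 passed (log2 change 0.58, limma adjusted p = 0.0258), and without Ngfr KO replicate 2 its log2 change was 0.22. Fcgrt passed with the GC and length trend removed (limma adjusted p = 0.0151) and after quantile normalization (0.0333), and had -0.28 without Ngfr KO replicate 3.

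Tap1 and Tap2 encode the subunits of the peptide transporter, of which Tap2 rose. Tap2 (ENSMUSG00000024339, chromosome 17, 34203527 to 34216321, plus strand) had a signal of 3.70, 4.56, 6.86 and 6.11 in WT and 9.59, 12.7 and 8.17 in Ngfr KO. All Ngfr KO samples exceeded all WT samples. Tap2 rose by 0.83 on the log2 scale (± 0.21 SE, limma's adjusted p = 0.0111) and was called under 16 of 17 alternatives, the exception being the fit without Ngfr KO replicate 2 (adjusted p = 0.0562). Tap1 (ENSMUSG00000037321, chromosome 17, 34187553 to 34197225, plus strand) had 6.01, 4.98, 4.77 and 5.43 in WT and 8.01, 6.27 and 4.95 in Ngfr KO. Ngfr KO replicate 3 lay within the WT range, and the log2 change of 0.22 (SE 0.17) did not pass the test (limma adjusted p = 0.344). Its log2 change was 0.067 without Ngfr KO replicate 1 and 0.37 without Ngfr KO replicate 3. The difference between Tap1 and Tap2 was itself not tested. Tapbp, the tapasin gene, had 7.89, 7.19, 8.63 and 9.06 in WT and 11.4, 10.7 and 7.03 in Ngfr KO. As for Tap1, Ngfr KO replicates 1 and 2 were above all WT samples and replicate 3 was not (chromosome 17, 33915899 to 33929292, plus strand; log2 change 0.20, ± 0.19 SE, limma's adjusted p = 0.420). The Tapbp log2 change was 0.080 without Ngfr KO replicate 1, 0.12 without replicate 2 and 0.39 without replicate 3.

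Of 8 further loading and trimming genes, all tested, 3 were called higher and 0 lower by limma, again near the 34.2% called among all genes (18.3% higher), with a median log2 change of 0.26. These were the endoplasmic reticulum chaperones Pdia3, Hspa5 and Calr. Pdia3, the oxidoreductase of the loading complex, had 26.2, 30.2, 59.1 and 45.3 in WT and 78.4, 86.8 and 96.0 in Ngfr KO (log2 change 1.16, ± 0.27 SE, limma's adjusted p = 0.00709). Hspa5, the general chaperone BiP, rose 1.83-fold (log2 change 0.89, adjusted p = 0.0116). Calr, calreticulin, rose 1.82-fold (0.83, adjusted p = 0.0228). These chaperones also serve other secreted and membrane proteins and are not particular to class I. The call of Calr was lost without WT replicate 1, WT replicate 2 or Ngfr KO replicate 3 (limma adjusted p = 0.0609 to 0.0694) and without a filter (0.0784). Canx, the membrane-bound relative of Calr, had 23.5 to 32.5 in WT against 25.5 to 35.1 in Ngfr KO, and its log2 change of 0.03 (± 0.19 SE, limma's adjusted p = 0.906) turned sign in 5 alternatives. Erap1, which trims peptides in the endoplasmic reticulum, had 3.27 to 5.56 in WT against 5.63 to 6.09 in Ngfr KO (log2 change 0.25, limma adjusted p = 0.287).

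**Figure D3:**
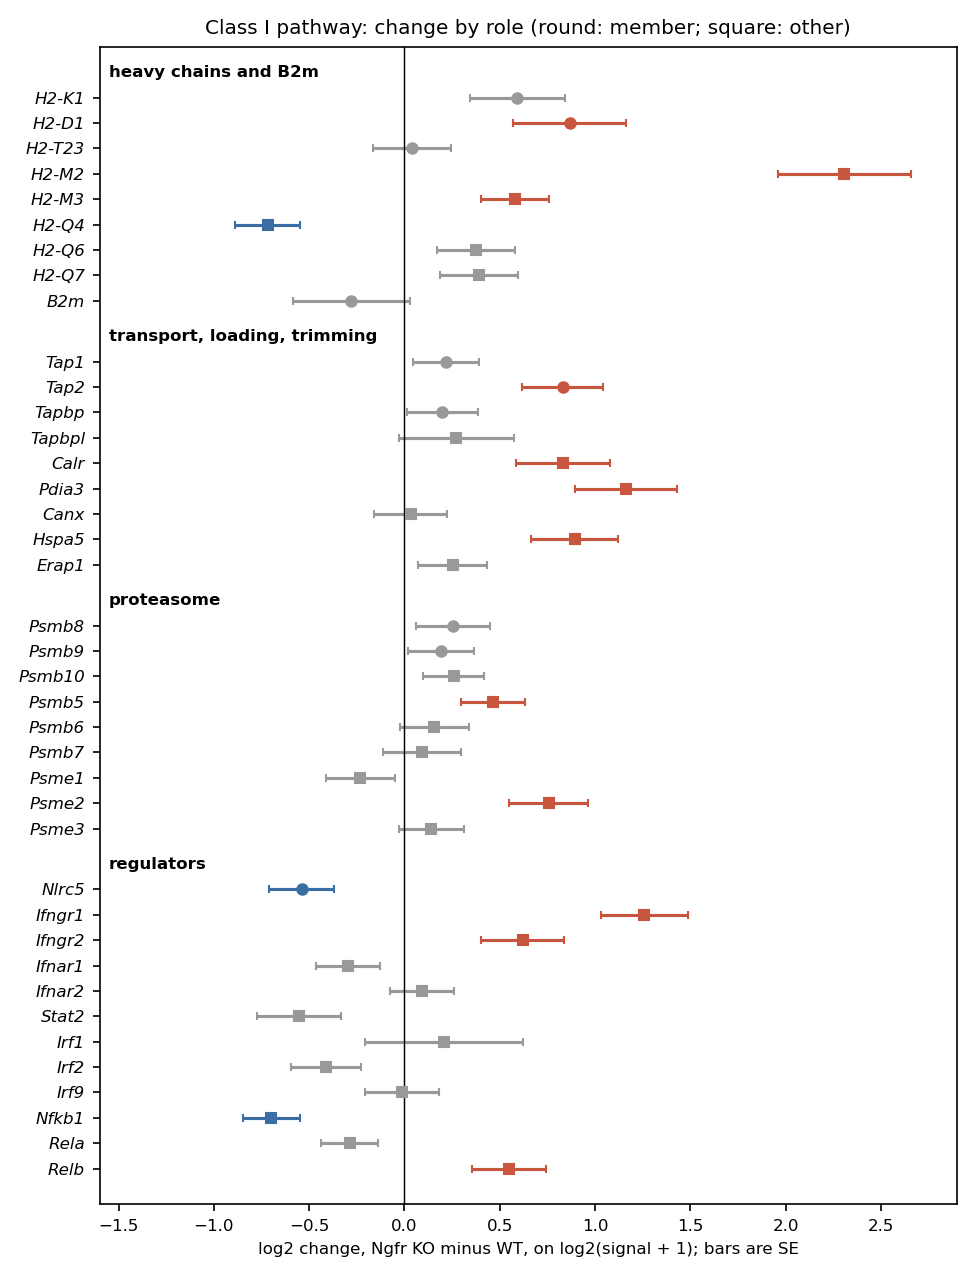
Log2 change with its SE (x axis, Ngfr KO minus WT) for genes of the class I pathway grouped by role, circles for the 10 members and squares for other genes, red for called higher, blue for called lower and grey for not called. Of the genes drawn H2-M2 has the largest change, 2.31, and the immunoproteasome subunits sit between 0.19 and 0.26 without a call.

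The immunoproteasome subunits did not pass the test. Psmb8, the subunit beta-5i (chromosome 17, 34197721 to 34201454, plus strand), had a signal of 31.8, 30.9, 39.3 and 31.3 in WT and 46.7, 33.1 and 40.7 in Ngfr KO. WT replicate 3 overlapped with the Ngfr KO samples (log2 change 0.25, ± 0.19 SE, limma's adjusted p = 0.321). Psmb9, the subunit beta-1i (chromosome 17, 34181987 to 34187764, minus strand), had 14.6, 15.1, 18.3 and 13.1 in WT and 18.3, 15.7 and 18.6 in Ngfr KO (log2 change 0.19, ± 0.17 SE, limma's adjusted p = 0.406). WT replicate 3 was again level with the Ngfr KO samples. The Psmb9 and Tap1 genes overlap on opposite strands by these coordinates, and reads from the overlap cannot be assigned without strand. Psmb10, the remaining immunosubunit, had 9.67 to 12.1 in WT against 12.3 to 14.6 in Ngfr KO (log2 change 0.26, limma adjusted p = 0.223).

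Each immunosubunit was also set against the standard subunit it replaces, a ratio that does not depend on scaling between samples. Psmb8 over Psmb5 was 2.86, 2.79, 2.82 and 2.45 in WT and 2.69, 2.16 and 2.13 in Ngfr KO. The mean log2 difference was -0.24, and the exact two-sided permutation test over 35 splits gave p = 0.0857, or 0.257 after adjustment over the 3 ratios. Psmb5 was called higher (log2 change 0.47, limma adjusted p = 0.0491), a call that 11 of 18 alternatives lost, among them leaving out any sample except WT replicate 3 (limma adjusted p = 0.0603 to 0.137). Psmb9 over Psmb6 averaged 0.588 ± 0.063 across WT samples (SD, n = 4) and 0.604 ± 0.050 across the knockouts (SD, n = 3; exact permutation p = 0.686). Psmb10 over Psmb7 was 1.23 ± 0.11 and 1.44 ± 0.42 (SD, n = 4 and 3; exact permutation p = 0.457, adjusted 0.686). The smallest p-value that 35 splits allow is 0.0286. None of the 3 ratios passed the test.

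Psme1 and Psme2 encode the chains of the PA28 activator, which caps the proteasome and is induced by interferon gamma. Psme2 had 23.8, 27.5, 28.1 and 19.8 in WT and 42.9, 34.0 and 51.3 in Ngfr KO, and rose by 0.76 on the log2 scale (± 0.21 SE, limma's adjusted p = 0.0154). Without Ngfr KO replicate 1 the adjusted p-value was 0.0540. Psme1 had 20.1 to 25.6 in WT against 15.9 to 21.0 in Ngfr KO (log2 change -0.23, ± 0.18 SE, limma's adjusted p = 0.330). The ratio of Psme2 to Psme1 was 0.987 to 1.24 in WT against 2.04 to 2.47 in Ngfr KO. This ratio was also chosen after the values were seen and has no test. Of the 7 further proteasome genes on the list, limma called Psme2 and Psmb5 higher and 0 lower, against 34.2% called (18.3% higher) among all genes. The median log2 change of the list was 0.16.

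Nlrc5 was the member called lower (ENSMUSG00000074151, chromosome 8, 94434356 to 94527272, plus strand). Its signal was 1.502, 1.44, 1.56 and 1.34 in WT and 1.23, 0.529 and 0.416 in Ngfr KO. The WT samples were close together, and Ngfr KO replicate 1 lay just under them, well above the other 2. The filter asked for a signal of 1 in 3 or more samples. Ngfr KO replicates 2 and 3 were below 1, so Nlrc5 was tested through its WT values. The log2 change was -0.54 (± 0.17 SE, limma's adjusted p = 0.0285). Nlrc5 is low in these libraries, with 104 to 386 reads each, and the pseudocount of 1 compresses its change. On the recovered reads the log2 change was -0.93 in edgeR (adjusted p = 0.118) and -0.94 in DESeq2 (adjusted p = 0.0714), and neither called it. The limma call was lost without WT replicate 1 (0.0617), WT replicate 2 (0.0599), Ngfr KO replicate 2 (0.110) or Ngfr KO replicate 3 (0.102), without a filter (0.0926) and with the GC and length trend removed (0.112). It was kept in 9 of 17 alternatives.

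Further regulators of class I genes formed a list of 23, of which 20 were tested. Limma called 5 higher and 1 lower, against 34.2% called among all genes, and the median log2 change was -0.05. Both chains of the interferon gamma receptor were among the genes called higher. Ifngr1, the ligand-binding chain, had 18.5, 26.6, 30.7 and 21.7 in WT and 54.2, 75.8 and 49.4 in Ngfr KO (log2 change 1.26, ± 0.23 SE, limma's adjusted p = 0.00198). Ifngr2 rose by 0.62 (adjusted p = 0.0432), a call lost in 10 of 18 alternatives, among them leaving out WT replicate 1 or 2 or any Ngfr KO replicate (limma adjusted p = 0.0739 to 0.123). The call of Ifngr1 was kept under all 18 alternatives. The chains of the type I interferon receptor, Ifnar1 and Ifnar2, were not called (limma adjusted p = 0.189 and 0.685).

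Irf1, an activator of class I and immunoproteasome genes, was set apart by 1 library. Its signal was 8.24, 7.67, 33.9 and 6.78 in WT and 13.9, 12.0 and 13.3 in Ngfr KO. With all samples the log2 change was 0.21 (limma adjusted p = 0.715), edgeR gave -0.05, and without WT replicate 3 it was 0.71 (limma adjusted p = 0.00835). WT replicate 3 was also the highest WT sample for 8 of the 10 class I genes, all except Tap1 and Tapbp. Its total signal was the largest of the WT samples too, 75156 against 67108, 70643 and 67543 in WT replicates 1, 2 and 4. The share of all genes that were highest in WT replicate 3 was not counted, and a link to Irf1 was not tested. Of the NF-κB subunits, Nfkb1 fell from 6.10 ± 0.58 (SD, n = 4) to 3.37 ± 0.35 (SD, n = 3) (log2 change -0.70, limma adjusted p = 0.00480). Relb rose by 0.55 (adjusted p = 0.0449) with overlapping groups, and Rela was not called (adjusted p = 0.154). Nfyc, a subunit of the factor that binds CCAAT, rose by 0.46 (adjusted p = 0.0360). The calls of Relb and Nfyc were each lost in 8 of 17 alternatives. For Relb these included leaving out WT replicate 1, 2 or 3 or Ngfr KO replicate 2 or 3 (limma adjusted p = 0.0571 to 0.195), and for Nfyc WT replicate 1 or 2 or any Ngfr KO replicate (0.0597 to 0.121).

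Levels of the members were compared per kilobase of the longest principal transcript. In WT the order was B2m (1224), H2-D1 (107), H2-K1 (102), Psmb8 (20.5), H2-T23 (18.1), Psmb9 (11.3), Tapbp (2.83), Tap1 (1.79), Tap2 (1.54) and Nlrc5 (0.193), in signal per kilobase. H2-D1 and H2-K1 did not differ beyond their SDs of 37.5 and 23.1, nor did Psmb8 and H2-T23 (2.44 and 4.15) or Tap1 and Tap2 (0.187 and 0.418). In Ngfr KO the order was the same except that Tap2 (2.95 ± 0.67) stood above Tap1 (2.17 ± 0.52), a gap near their SDs. These SDs describe spread between samples, while the genes compared were read in the same libraries. Tap2 was above Tap1 in each Ngfr KO sample (2.79 against 2.71, 3.68 against 2.12 and 2.37 against 1.68). H2-D1 was above H2-K1 in each of them too. Psmb8 was above H2-T23 in WT replicates 1, 2 and 4 and level with it in WT replicate 3. The order of H2-D1 and H2-K1, and of Tap1 and Tap2, varied among WT samples.

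Genes with the profile closest to a member over the 7 samples were found by Pearson's r of log2(signal + 1), as a description. For H2-K1 they were H2-D1 (r = 0.994), Slc39a11 (0.994) and Tmed4 (0.993). For B2m they were Sub1 (0.986), Map3k8 (0.980) and Caprin1 (0.978). Tap1 was followed by Snapc3 (0.984), AC154597.1 (0.965) and Arid4b (0.937), Psmb8 by Naa20 (0.978) and Tgtp2 (0.967), and Nlrc5 by Acox3 (0.985), Lysmd3 (0.958) and Ubn1 (0.957). These values share the split into 2 genotypes: 605 of 8325 genes reached r above 0.9 with H2-K1, and 5 did so with Tap1.

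Class II genes and other interferon response genes were the nearest groups, and their counts are to be read against the 34.2% called (18.3% higher) among all genes. Of 11 class II genes 9 were tested and 3 called higher by limma, H2-Ab1 (log2 change 1.499, adjusted p = 0.00324), H2-Eb1 (1.05, 0.0227) and H2-DMb1 (1.00, 0.00703), with a list median of 0.58. Of 18 interferon response genes 11 were tested and 3 called higher, Cxcl9 (2.32, limma adjusted p = 0.0154), Usp18 (1.09, 0.00478) and Igtp (1.02, 0.0136), with a list median of 0.26. The call of H2-Eb1 was lost without WT replicate 1 (limma adjusted p = 0.0582) or Ngfr KO replicate 2 (0.107). That of Cxcl9, whose groups overlapped, was lost without Ngfr KO replicate 1 (0.0584) or Ngfr KO replicate 3 (0.0553). With no filter limma did not call H2-Eb1 (adjusted p = 0.102), Cxcl9 (0.0989) or Igtp (0.0752), and robust eBayes did not call Cxcl9 (0.105). Igtp had a log2 change of 0.63 without Ngfr KO replicate 1 (limma adjusted p = 0.0460). Cxcl9 ranged from 1.47 to 3.20 over its alternatives. Differences between these lists and the class I genes were not tested.

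**Figure D4:**
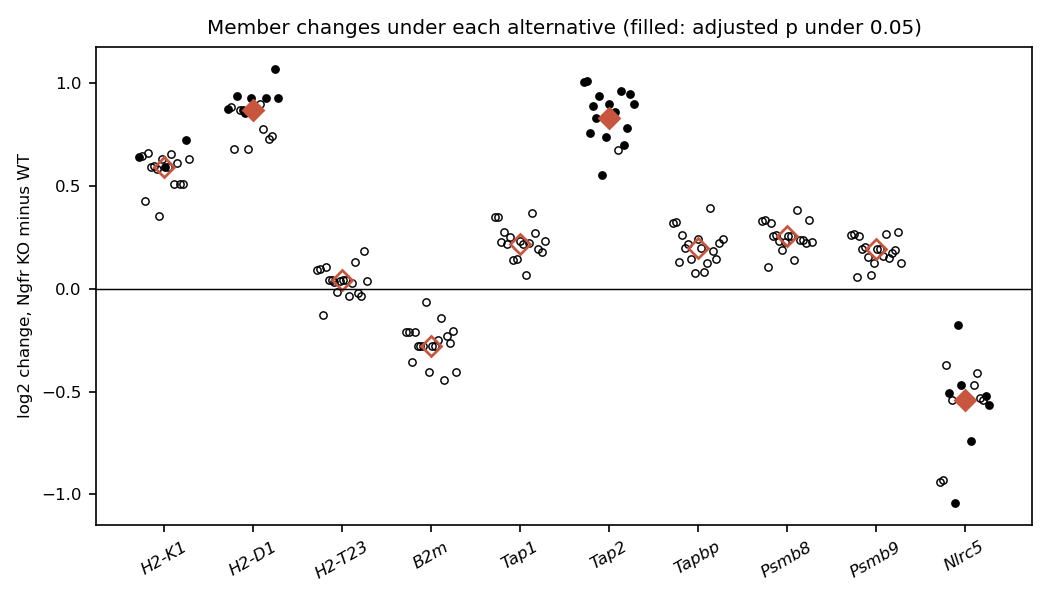
Log2 change (y axis, Ngfr KO minus WT) of the 10 class I genes as reported (diamonds) and under each alternative (circles), filled where the adjusted p-value was under 0.05. H2-D1 stays between 0.68 and 1.07, Tap2 between 0.55 and 1.01 and Nlrc5 between -1.04 and -0.18. Filled and open circles mix for H2-K1, H2-D1 and Nlrc5, and Tap2 has 1 open circle.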

How the data were processed

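RNA of sorted cells was amplified with SMART-Seq v4 and made into Nextera XT libraries, per the labels' protocols. Demultiplexing with bcl2fastq 2.20.0.422 and the mm10 build are given per the submitters' processing notes. The aligner, counting rule, annotation and normalization software are not given in the sources used here. The deposited values are a TMM-normalised signal per gene, per the file headers, and 100% of them were whole multiples of 1 read within a tolerance of 0.02, so reads were recovered. A value of 1 stands for 230.1 to 295 reads. Of 21176 gene identifiers 21137 matched GENCODE M21.

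The 8326 genes whose signal reached 1 in 3 or more samples were tested with limma 3.58.1 in R 4.3.3 on log2(signal + 1), which understates changes of low genes. Ngfr, below this filter, was added to the same fit. Benjamini-Hochberg adjustment ran over all genes tested, at a threshold of 0.05. The count models edgeR 4.0.16 (2551 of 16751 genes called) and DESeq2 1.42.0 (3990 of 18205) were run on the recovered reads as alternatives, beside other scaling, filters, pseudocounts, a replicate block and leaving out each sample. Ratios were tested with exact permutation tests. The scripts were tested on simulated data. The labels call the samples independent, and p-values measure the spread between these pools. Depth was higher in every Ngfr KO library, and read numbers cover counting error only.

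The members and gene lists were chosen with earlier results of these data known. The text names Ngfr, the 10 members, at most 8 genes a list (called genes with the largest change first, then those a role needs) and the 3 genes most like each of 5 members. A gene that these rules select may be not reported here. Start-site sequences of 8 members come from RefSeq on GRCm38.p6.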

Additional observations from a re-analysis of the deposited data

Results flagged for a closer look

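Within the 4 WT samples, a single library stood far from the other 3 for 4 of the 43 quantities examined, where chance alone gives about 1 in 20, or 2.15. A library was listed when its gap to the nearest other sample exceeded the critical value of Dixon's test as a share of the group's range. Psmb8 had a signal of 39.3 in WT replicate 3 and 30.9 to 31.8 in the others. Irf1 had 33.9 in WT replicate 3 and 6.78 to 8.24 in the others. Erap1 had 3.27 in WT replicate 4 and 5.21 to 5.56 in the others. WT replicate 4 had a log2 ratio of Psmb8 to Psmb5 of 1.29, against 1.48 to 1.52 for the others.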

How the results depend on the processing

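Limma called 2844 genes with all samples, 535 of 1297 with the stricter filter, and 1727 to 3051 when 1 sample was left out. Of the 10 class I genes it called 3, and 1 was called with edgeR, with the GC and length trend removed, with no filter and with the stricter filter, which left 6 of the 10 to test, without Tap2 and Nlrc5. Leaving out 1 sample gave 0 (without Ngfr KO replicate 2) to 4 (without WT replicate 3). The direction was kept in 171 of 176 fits of the 10 genes and in 497 of 510 fits of 29 further genes refitted under the alternatives. Ngfr kept its direction in 17 of 17. With no filter, the stricter filter or robust eBayes the log2 change is by construction the reported value, so those fits could not turn. The replicate block gives by construction the same log2 change as leaving out WT replicate 4, since no Ngfr KO sample has that number. The totals count both of these fits. Ifnar1, Ifnar2, Rela and, apart from H2-D1, the genes named for likeness have no such refits here. H2-T23 turned to -0.13 with the GC and length trend removed and to -0.019 after quantile normalization, and ranged from -0.036 to 0.18 with 1 sample left out. Canx gave -0.045, -0.025 and, with the replicate block, -0.051, and ranged from -0.10 to 0.12. Psmb6 gave -0.034 with the trend removed, and Psmb7 -0.081 with it and -0.055 after quantile normalization, with a low of -0.13 and a high of 0.24. Irf1 gave -0.068 with DESeq2, -0.051 with edgeR and -0.0065 with the block, and -0.0065 to 0.71 with 1 sample left out. The log2 difference in the ratio of Psmb9 to Psmb6 ranged from -0.019 to 0.11, of Psmb8 to Psmb5 from -0.35 to -0.18 and of Psmb10 to Psmb7 from 0.03 to 0.45. The cause of these shifts was not tested. No consistent pairing by replicate number was seen: same-numbered samples correlated at 0.298, -0.059 and -0.011 in their deviations from group means. The value of 0.298, for replicate 1, was the highest of any WT and Ngfr KO pair. With the replicate block limma called 2717 genes and 3 class I genes. The median gene shifted by 0.02 as deposited, 0.07 with median ratio scaling and 0.00 after quantile normalization. A count of 3 reads corresponds to a signal of 0.0102 to 0.0130, far below the members' values.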
